A study of Oryza sativa Japonica Group with 12 samples.

Results

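The subject is a set of 10 rice genes for diterpenoid phytoalexins, taken as the rows of a leaf count table that carry 10 listed locus IDs, out of 38978 rows in all. On chromosome 4 they are CPS4 (Os04g0178300), CYP99A3 (Os04g0178400), MAS (Os04g0179200), KSL4 (Os04g0179700) and CYP99A2 (Os04g0180400). On chromosome 2 they are CYP76M7 (Os02g0569900), KSL7 (Os02g0570400) and CPS2 (Os02g0571100). KSL8 (Os11g0474800) lies on chromosome 11 and KSL10 (Os12g0491800) on chromosome 12. The names are those of the member list, because the deposited table holds IDs alone. RefSeq lists 8 of the 10 symbols on the chromosome that the ID carries and puts CYP76M7 on chromosome 6, while KSL8 was not matched.

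Diterpenoid phytoalexins are antimicrobial compounds that rice is known to make after attack by the blast fungus, ultraviolet light or jasmonate treatment. A class II cyclase folds the common precursor geranylgeranyl diphosphate into either the syn or the ent form of copalyl diphosphate. A class I synthase of the kaurene synthase-like (KSL) family then closes the ring system, and cytochrome P450s and dehydrogenases decorate it. The genes of the syn route to momilactones are clustered on chromosome 4, and several genes of the ent route to phytocassanes are clustered on chromosome 2.

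RNA came from leaves of field-grown japonica rice, cultivar Nipponbare, taken at 10 in the morning. Line7 and Line8 (4 libraries each) were homozygous transgenic lines 7 and 8 of p35s-Ami-YGL1, in which the constitutive 35S promoter drives an artificial microRNA against YGL1, the chlorophyll synthase gene. WT (4 libraries) was the unmodified cultivar. There was no line with an empty construct, so effects of the microRNA and of carrying a transgene cannot be told apart, and each line is 1 homozygous transgenic line. Nothing in the labels ties each replicate to a plant of its own, so every p-value rests on a spread between libraries that may be technical.

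Library totals ran from 14746933 to 19822636 counts, and 20217 rows were abundant enough to test. The library labelled Line7 replicate 2 stood apart from its group and went against its label. Its mean Spearman correlation across rows was 0.925 with the other Line7 libraries and 0.977 with the WT libraries, whereas Line7 replicates 1, 3 and 4 correlated at 0.902 to 0.933 with WT. Os05g0349700, the ID taken for the microRNA's target, stood at 68.1 CPM (counts scaled to library size, after TMM) in that library, against 27.4 to 34.4 CPM in the other Line7 libraries, 23.8 to 33.4 CPM in Line8 and 44.2 to 69.1 CPM in WT. Whether it is a Line7 library was not settled by the files. It is kept under its label in every Line7 value. Without it 7 of 8 genes were called (6 higher, 1 lower) in place of 4 of 8, where 25.2% of all rows were called in place of 6.97%. These calls are given with the counts over all members. Of 9 plastid-encoded genes listed as markers of green leaf, 7 had a row. In all 12 libraries psbC, psbD and petB were at 0, while psbB, a photosystem II core gene, held 2352 counts over all libraries and psbA 32. These rows are therefore a weak check of the leaf label.

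In Line7 against WT, 4 of the 8 testable phytoalexin genes rose, where 5.92% of all tested rows did, and none fell, where 1.05% did. The 4 were CPS4, KSL4 and MAS of the momilactone cluster and KSL7 of the chromosome 2 cluster, by 5.19-fold to 12.8-fold. Of these, KSL4, MAS and KSL7 passed the filter on low counts with the help of the lines' libraries, where they were higher. The count of 4 of 8 is therefore descriptive. CPS2, the ent-specific cyclase, pointed the other way and did not pass the test. Its levels were lower in all 4 Line7 libraries than in any WT library, as in 6.46% of tested rows. In Line8 against WT none of the 8 passed, where 15.5% of all rows were called higher and 11.8% lower, although KSL4 and KSL7 had fitted folds of 6.44 and 3.54. The higher levels were not shared evenly by the libraries of a line. Line7 replicates 1, 3 and 4 and Line8 replicate 1 were above every WT library for all 4 of these genes, and each of the other 4 libraries of the lines was so for some of them.

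**Figure D1:**
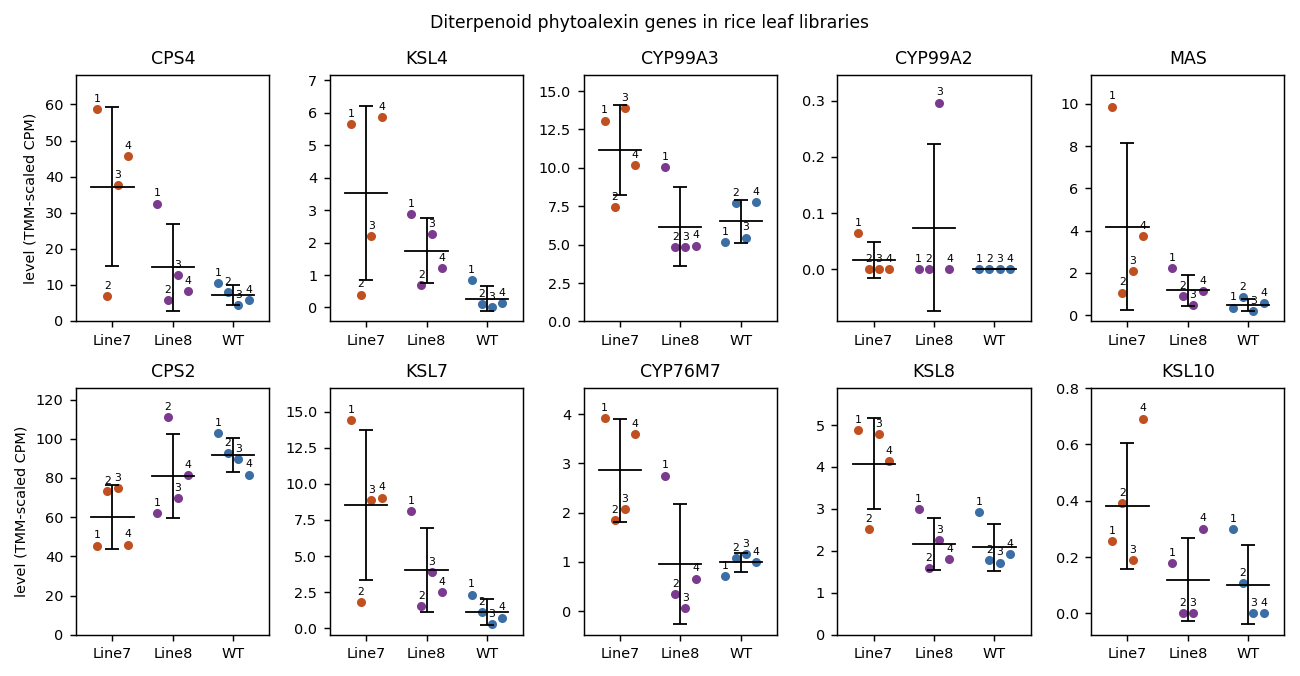
Level of each of the 10 genes (TMM-scaled CPM, linear axes) in Line7, Line8 and WT. Points are libraries with their replicate number, long lines are means and error bars are SD over 4 libraries; in the CPS4 panel the library labelled Line7 replicate 2, at 6.84 CPM, lies among the WT libraries at 4.36 to 10.4 CPM.

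CPS4 makes syn-copalyl diphosphate and so opens the momilactone route. Its level in Line7 replicates 1 to 4 was 58.8, 6.84, 37.6 and 45.6 CPM, in Line8 32.5, 5.80, 12.7 and 8.13 CPM, and in WT 10.4, 8.02, 4.36 and 5.79 CPM. Line7 replicates 1, 3 and 4 and Line8 replicates 1 and 3 were above every WT library, and the remaining libraries of both lines lay inside the WT range. The log2 fold change in Line7 was 2.38 (SE 0.623, edgeR quasi-likelihood test with Benjamini-Hochberg adjustment over all tested rows, adjusted p = 0.0404). In Line8 it was 1.05 (SE 0.606, edgeR adjusted p = 0.213). In bulk tissue, fewer cells that express a gene and less RNA per cell cannot be told apart, here and for every gene below.

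KSL4 turns syn-copalyl diphosphate into syn-pimaradiene, the hydrocarbon precursor of momilactones. It held 5.64, 0.392, 2.20 and 5.88 CPM in Line7, 2.87, 0.691, 2.25 and 1.20 CPM in Line8, and 0.835, 0.108, 0 and 0.124 CPM in WT. WT replicate 1 accounted for 14 of the 18 WT counts, and the library labelled Line7 replicate 2 and Line8 replicate 2 lay below it. The log2 fold change was 3.68 in Line7 (SE 0.949, edgeR adjusted p = 0.0375) and 2.69 in Line8 (SE 0.948, edgeR adjusted p = 0.0507). With so few WT counts the size of these folds is imprecise, and without WT replicate 1 the fitted value in Line7 was 5.35.

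MAS, momilactone A synthase, is the dehydrogenase that completes momilactone A. Line7 libraries held 9.87, 1.06, 2.08 and 3.73 CPM, Line8 libraries 2.21, 0.898, 0.474 and 1.14 CPM, and WT libraries 0.358, 0.867, 0.184 and 0.560 CPM. All Line7 libraries were above all WT libraries, which 4.71% of tested rows showed, while Line8 replicate 3 lay inside the WT range. MAS rose in Line7 by 3.05 on the log2 scale (SE 0.717, edgeR adjusted p = 0.0283), with 34 counts over the 4 WT libraries. The Line8 value was 1.24 (SE 0.723, edgeR adjusted p = 0.215).

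CYP99A3 and CYP99A2 are closely related P450s of the chromosome 4 cluster that oxidise syn-pimaradiene. CYP99A3 stood at 13.1, 7.46, 13.9 and 10.2 CPM in Line7, at 10.05, 4.84, 4.86 and 4.94 CPM in Line8 and at 5.19, 7.70, 5.47 and 7.78 CPM in WT. Only the library labelled Line7 replicate 2 of the Line7 group lay inside the WT range, while Line8 replicates 2, 3 and 4 lay below it and Line8 replicate 1 above it. Neither line passed the test, with log2 fold changes of 0.77 in Line7 (SE 0.292, edgeR adjusted p = 0.115) and -0.08 in Line8 (SE 0.294, edgeR adjusted p = 0.854). CYP99A2 was close to undetected, with 1 count over the Line7 libraries, 5 counts over the Line8 libraries (all in replicate 3) and 0 over the WT libraries. A floor of 3 counts in a library corresponds to 0.163 to 0.207 CPM, so no fold is given for it. Reads of such similar copies may have been divided between rows, so the values of this pair are uncertain.

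**Figure D2:**
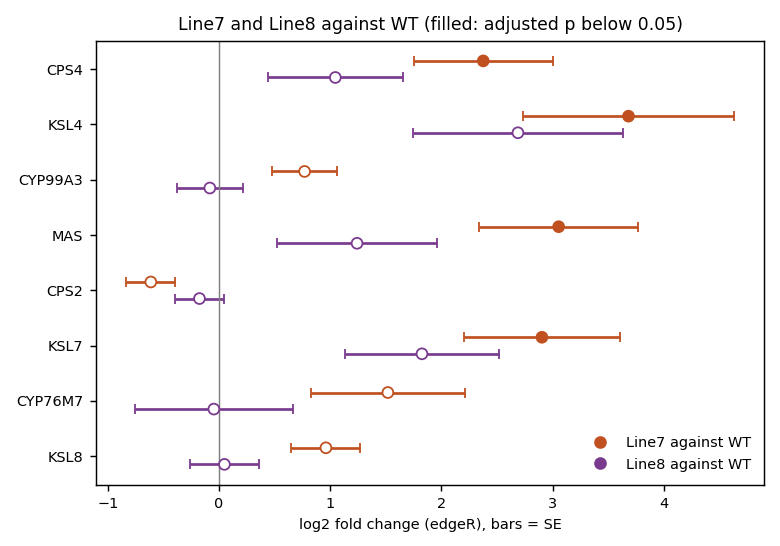
Fitted log2 fold change (horizontal axis, edgeR) of the 8 testable genes in Line7 and in Line8 against WT. Points are estimates, bars are SE and filled points passed the adjusted threshold of 0.05; the 4 filled points are CPS4, KSL4, MAS and KSL7 in Line7, at 2.38 to 3.68.

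On chromosome 2, CPS2 makes ent-copalyl diphosphate for phytoalexins. Its level was 45.5, 73.3, 74.9 and 46.0 CPM in Line7, 62.1, 111, 69.9 and 81.4 CPM in Line8, and 103, 92.5, 89.5 and 81.7 CPM in WT. The Line7 and WT groups did not overlap, with Line7 lower, as in 6.46% of tested rows, while Line8 replicate 2 was above every WT library. The log2 fold change was -0.61 in Line7 (SE 0.221, edgeR unadjusted p = 0.0158, adjusted p = 0.101) and -0.18 in Line8 (SE 0.220, edgeR adjusted p = 0.580). CPS2 rested on 665 to 1723 counts per library, so counting error was small beside the spread between libraries.

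KSL7 converts ent-copalyl diphosphate to ent-cassadiene, the precursor of phytocassanes. It held 14.4, 1.79, 8.87 and 9.06 CPM in Line7, 8.13, 1.52, 3.91 and 2.53 CPM in Line8, and 2.33, 1.14, 0.307 and 0.747 CPM in WT. The library labelled Line7 replicate 2 and Line8 replicate 2 lay inside the WT range, and the other 6 line libraries above it. KSL7 rose in Line7 by 2.90 on the log2 scale (SE 0.703, edgeR adjusted p = 0.0309). In Line8 the value was 1.83 (SE 0.693, edgeR unadjusted p = 0.0205, adjusted p = 0.0665).

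CYP76M7 hydroxylates ent-cassadiene and belongs to a group of similar tandem P450 genes, so its reads may also have been divided between rows. Its level was 3.91, 1.85, 2.08 and 3.59 CPM in Line7, 2.75, 0.345, 0.0592 and 0.662 CPM in Line8 and 0.716, 1.08, 1.17 and 0.996 CPM in WT. All Line7 libraries were above all WT libraries, as in 4.71% of tested rows, whereas Line8 replicate 1 was above the WT range and Line8 replicates 2, 3 and 4 below it. The log2 fold change was 1.52 in Line7 (SE 0.691, edgeR adjusted p = 0.180) and -0.05 in Line8 (SE 0.711, edgeR adjusted p = 0.968), neither past the threshold. The lowest library, Line8 replicate 3, held 1 count.

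The remaining synthases lie outside both clusters. KSL8 acts on syn-copalyl diphosphate and makes stemarene, the precursor of oryzalexin S. It stood at 4.87, 2.52, 4.78 and 4.15 CPM in Line7, 2.99, 1.59, 2.25 and 1.81 CPM in Line8 and 2.92, 1.79, 1.72 and 1.93 CPM in WT. Line7 replicates 1, 3 and 4 were above the WT range, as was Line8 replicate 1 by a small margin, while Line8 replicate 2 was below it. The log2 fold change was 0.96 in Line7 (SE 0.309, edgeR adjusted p = 0.0737) and 0.05 in Line8 (SE 0.313, edgeR adjusted p = 0.920). KSL10, which makes sandaracopimaradiene for the oryzalexins of the ent route, had too few counts to test, with 24 over the Line7 libraries, 8 over the Line8 libraries and 7 over the WT libraries. Single libraries held 0 to 10 counts of it and the groups overlapped.

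Counted together, 8 of the 10 genes passed the filter on low counts, CYP99A2 and KSL10 being left out. KSL4, MAS and KSL7 had under 10 counts in at least 1 WT library and passed with the help of the lines' libraries, so the counts that follow describe the testable genes alone. In Line7, CPS4, KSL4, MAS and KSL7 (4 of 8) were called higher, where 5.92% of all tested rows were, and 0 of 8 lower, where 1.05% were (edgeR; all 8 had an unadjusted p below 0.05, among them CPS2 in the lower direction, as did 26.9% of all tested rows). DESeq2 called 5 genes higher (these 4 and KSL8), where it called 15% of all rows in either direction, and limma-voom called 0, where it called 0.109%. The median log2 fold change was 1.95 over the 8 genes and -0.01 over all tested rows.

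In Line8, edgeR called 0 of 8, where it called 15.5% of all rows higher and 11.8% lower. KSL4 and KSL7 had an unadjusted p below 0.05, as did 40.7% of all tested rows, DESeq2 called these 2 genes, where it called 33.3% of all rows in either direction, and limma-voom called 0, where it called 27% of all rows. The median was 0.55 over the 8 genes and -0.07 over all tested rows. For the mean of both lines against WT, CPS4, KSL4, MAS and KSL7 rose by 1.71, 3.18, 2.15 and 2.36 on the log2 scale (edgeR adjusted p = 0.0420, 0.0223, 0.0327 and 0.0206). That is 4 of 8, where 14.2% of all rows were called higher. This contrast and that of Line7 share libraries with each other, and all use the same WT libraries.

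The Line7 count turned on single libraries. Without the library labelled Line7 replicate 2, 6 of 8 genes were called higher (all of the 8 except CPS2 and CYP76M7), where 14.9% of all rows were, and CPS2 was called lower, where 10.2% were. CPS4 was then at 2.72 (edgeR adjusted p = 0.00210), CYP99A3 at 0.92 (adjusted p = 0.0352), KSL8 at 1.13 (adjusted p = 0.0155) and CPS2 at -0.73 (adjusted p = 0.0356). In the same fit KSL4 and KSL7 passed in Line8 (edgeR adjusted p = 0.0212 and 0.0308), where 17.4% of all rows were called higher. The same pair, 2 of 8, passed in Line8 without WT replicate 1 and without Line8 replicate 2, where 24.8% and 23.6% of all rows were called in either direction, so that this count is near the background. The Line7 count was 0 when Line7 replicate 1, 3 or 4 or WT replicate 1, 2, 3 or 4 was left out, when the calls over all rows numbered 7 to 490 (0.0341% to 2.38%). It was 2 without Line8 replicate 4, where 4.2% of all rows were called in either direction. The count for the mean of both lines was 2 without Line7 replicate 1, Line8 replicate 1 or either of WT replicates 1 and 2, where 16% to 19.9% of all rows were called in either direction. It was 0 without WT replicate 3 or WT replicate 4, where 11.2% and 15% of all rows were called.

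Whether the lines differed from each other was tested directly. In Line8 against Line7, 7 of the 8 fitted values were negative, that is, lower in Line8, with a median log2 fold change of -1.04 against -0.02 over all tested rows. None passed in edgeR, where 0.0247% of all rows did, while 5 genes had an unadjusted p below 0.05, as did 16.2% of all rows, and DESeq2 and limma-voom called 0. MAS differed by -1.81 (SE 0.664, edgeR adjusted p = 0.246), CYP76M7 by -1.56 (SE 0.694, adjusted p = 0.295) and CPS4 by -1.33 (SE 0.599, adjusted p = 0.300). KSL8 differed by -0.91 (SE 0.309, edgeR adjusted p = 0.231) and CPS2 by 0.44 (SE 0.221, adjusted p = 0.339). The different outcomes of the lines against WT were therefore not shown to be a difference between the lines.

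**Figure D3:**
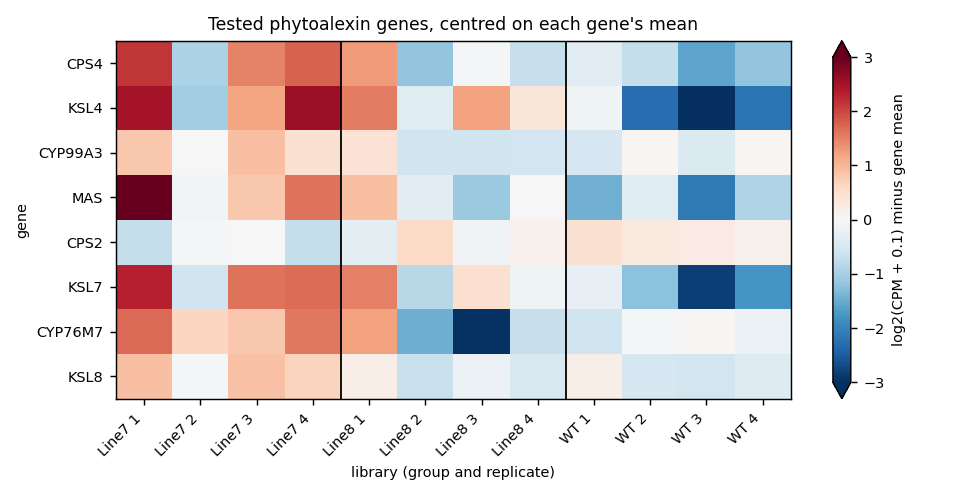
Level of the 8 testable genes in each of the 12 libraries, as log2(CPM + 0.1) minus the gene's mean over all libraries (red above, blue below the mean). Line7 replicates 1, 3 and 4 and Line8 replicate 1 are red in every row except CPS2, and the library labelled Line7 replicate 2 is blue for CPS4, KSL4 and KSL7, as the WT columns are.

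The highest libraries were largely the same for genes of both clusters and chromosome 11. The 4 libraries with the highest CPS4 level, Line7 replicates 1, 3 and 4 and Line8 replicate 1, were also the 4 highest for CYP99A3, MAS, KSL7, CYP76M7 and KSL8. For KSL4 they held 3 of the 4 highest places, with Line8 replicate 3 in the other. Among all tested rows 540, or 2.67%, had these same 4 libraries on top, a feature that was picked after the values were seen. CPS2 was the exception, as 3 of its 4 lowest libraries were Line7 replicates 1 and 4 and Line8 replicate 1. The 4 top libraries were mostly from Line7, so their sharing in part repeats the difference of Line7 from WT. In other libraries the genes parted. Line8 replicate 3 was above every WT library for CPS4, KSL4 and KSL7 and below every WT library for CYP99A3 and CYP76M7.

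Line8 replicate 1 was not far from its group over all rows, with a mean Spearman correlation of 0.954 with the other Line8 libraries, where the Line8 libraries ranged from 0.932 to 0.966. Its target ID stood at 26.1 CPM, within the 23.8 to 33.4 CPM of all Line8 libraries. In Line8 replicates 2, 3 and 4 that ID stood at 33.4, 23.8 and 24.0 CPM. In Line7 replicates 1 to 4 it stood at 34.4, 68.1, 27.4 and 27.8 CPM. Whether CPS4 follows the level of that ID was not tested. The summed counts of the 7 plastid marker rows moved in part with the phytoalexin genes. They were 277, 136, 241 and 274 in Line7 replicates 1 to 4 and 310, 84, 351 and 157 in Line8 replicates 1 to 4, against 104 to 167 in WT. Each library had 4 of the 7 rows at 0, except Line8 replicate 1 with 5. Of the mitochondrial markers all 4 had a row, with nad1 at 0 throughout, and summed to 15 to 61 counts in Line7, 17 to 87 in Line8 and 26 to 54 in WT. The part of both lists in these results was not tested.

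Spread within a group differed widely between the genes. In Line7 the SD of log2(CPM + 0.1) over the 4 libraries was 1.40 for CPS4, 1.69 for KSL4, 1.32 for MAS and 1.28 for KSL7, where the median tested row had 0.355. Between 96.6% and 98.8% of tested rows varied less than these genes in that group. These SDs include the library labelled Line7 replicate 2, the lowest of the group for all 4 genes. It held 6.84 CPM of CPS4 and 1.79 CPM of KSL7, where the other Line7 libraries held 37.6 to 58.8 and 8.87 to 14.4 CPM. The spread without it was not computed, so it cannot be read as variation within the line. In WT, where no transgene was present, KSL7 and KSL4 had SDs of 1.08 and 1.35 against a median of 0.303, although with 5 to 39 and 0 to 14 counts per library counting error adds to both. CPS2 was among the steadier rows in WT, with an SD of 0.137 and 12.5% of rows steadier, and had 0.401 in Line7.

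Ratios between genes in the same library do not depend on the scaling of libraries. The log2 ratio of CPS2 to CPS4 counts, the cyclases of the ent and syn branches, was -0.37, 3.42, 0.99 and 0.01 in Line7, 0.94, 4.25, 2.46 and 3.32 in Line8, and 3.30, 3.52, 4.35 and 3.81 in WT. It was below every WT library in Line7 replicates 1, 3 and 4 and in Line8 replicates 1 and 3. The mean was 1.01 ± 1.70 in Line7 (SD, n = 4) and 3.75 ± 0.455 in WT (exact two-sided permutation test, p = 0.0571, adjusted p = 0.114 over the 12 tests of 3 ratios and 4 contrasts). In Line8 it was 2.74 ± 1.41 (exact permutation p = 0.229, adjusted p = 0.249). None of the 12 tests passed after adjustment. The smallest p that 4 against 4 libraries allow is 0.0286, and 8 against 4 allow 0.00404. For the 8 libraries of both lines against WT, exact permutation p was 0.0566 for CPS2 to CPS4. It was 0.0121 for KSL4 to CPS4 and 0.0202 for KSL7 to KSL4 (adjusted p = 0.114 for each of the 3 ratios).

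KSL4 takes up the product of CPS4. The log2 ratio of KSL4 to CPS4 counts was -2.92 ± 0.433 in Line8 and -5.47 ± 1.48 in WT (SD, n = 4 each), and all 4 Line8 libraries were above all WT libraries (exact two-sided permutation test, p = 0.0286, adjusted p = 0.114). In Line7 it was -3.61 ± 0.542 (exact permutation p = 0.0857, adjusted p = 0.147). The WT value leans on 18 KSL4 counts, and adding 2 counts in place of 0.5 brought the Line8 difference to 1.77 from 2.54. KSL7 to KSL4, the synthases of the phytocassane and momilactone routes, was 1.52 ± 0.687 in Line7, 1.11 ± 0.291 in Line8 and 2.58 ± 0.895 in WT (SD, n = 4 each). Its exact permutation p was 0.114 for Line7 and 0.0571 for Line8 (adjusted p = 0.171 and 0.114). This ratio leans on the same 18 WT counts of KSL4. Adding 2 counts in place of 0.5 brought its difference from WT to -0.42 from -1.06 in Line7. In Line8 the difference became -0.82 from -1.47.

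**Figure D4:**
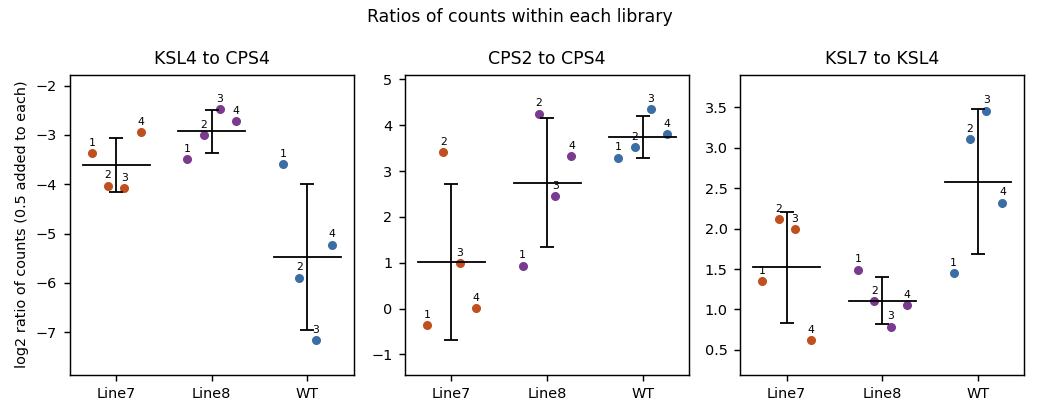
Log2 ratio of counts of 2 genes in the same library (0.5 added to each count) for KSL4 to CPS4, CPS2 to CPS4 and KSL7 to KSL4, in Line7, Line8 and WT. Points are libraries with replicate numbers, long lines are means and bars are SD over 4 libraries; CPS2 to CPS4 is -0.37 to 0.99 in Line7 replicates 1, 3 and 4 and 3.30 to 4.35 in WT.

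Rice locus IDs number genes in order along a chromosome, so the rows around the members could be examined without naming them. Between CPS4 and CYP99A2 on chromosome 4 the table holds 2 further rows, of which the 1 that could be tested, between CYP99A3 and MAS, had a log2 fold change of 0.07 in Line7 and -0.85 in Line8 (edgeR adjusted p = 0.934 and 0.131). Of the 10 rows before and the 10 after that span, 4 and 4 could be tested. None was called in Line7, where their values ran from -0.49 to 0.62. Of all tested rows 5.92% were called higher in Line7 and 1.05% lower. The row directly before CPS4 was called higher in Line8 (0.57, edgeR adjusted p = 0.0299), where 15.5% of all tested rows were. With so few rows these counts are near the background. All 4 testable members on chromosome 4 had larger fitted values in Line7, from 0.77 to 3.68. KSL4 and MAS among them passed the filter with the help of the lines' libraries, so this contrast is descriptive.

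On chromosome 2 the span from CYP76M7 to CPS2 holds 6 further rows, of which 2 could be tested. Os02g0570300, between CYP76M7 and KSL7, fell in Line7 by 1.22 on the log2 scale (SE 0.338, edgeR adjusted p = 0.0476), and was picked after its value was seen. It held 2.56, 3.08, 1.45 and 2.70 CPM in Line7 and 7.46, 5.31, 6.14 and 3.98 CPM in WT, without overlap, as in 6.46% of tested rows. In Line8 it held 2.45, 2.83, 5.39 and 2.35 CPM, with replicate 3 inside the WT range. The log2 fold change was -0.81 in Line8 (edgeR adjusted p = 0.0862) and -1.02 for the mean of both lines (edgeR adjusted p = 0.0211). The row directly before CYP76M7 held 4.23, 1.01, 3.40 and 3.87 CPM in Line7, 3.11, 0.760, 0.592 and 1.02 CPM in Line8 and 1.31, 1.25, 0.614 and 0.809 CPM in WT, the same libraries being high as for CPS4. Its log2 fold change in Line7 was 1.64 (SE 0.563, edgeR adjusted p = 0.0900). Of the 10 rows on either side of the span, 6 and 4 could be tested and 0 were called in Line7, against 1 called higher on each side in Line8. Of all tested rows 5.92% were called higher and 1.05% lower in Line7, and 15.5% higher in Line8. With so few rows these counts are near the background. In locus order from CYP76M7 to CPS2 the testable rows thus had Line7 values of 1.52, -1.22, 2.90, -0.66 and -0.61. Counting is not stated to use strand, so reads of overlapping neighbours cannot be told apart.

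**Figure D5:**
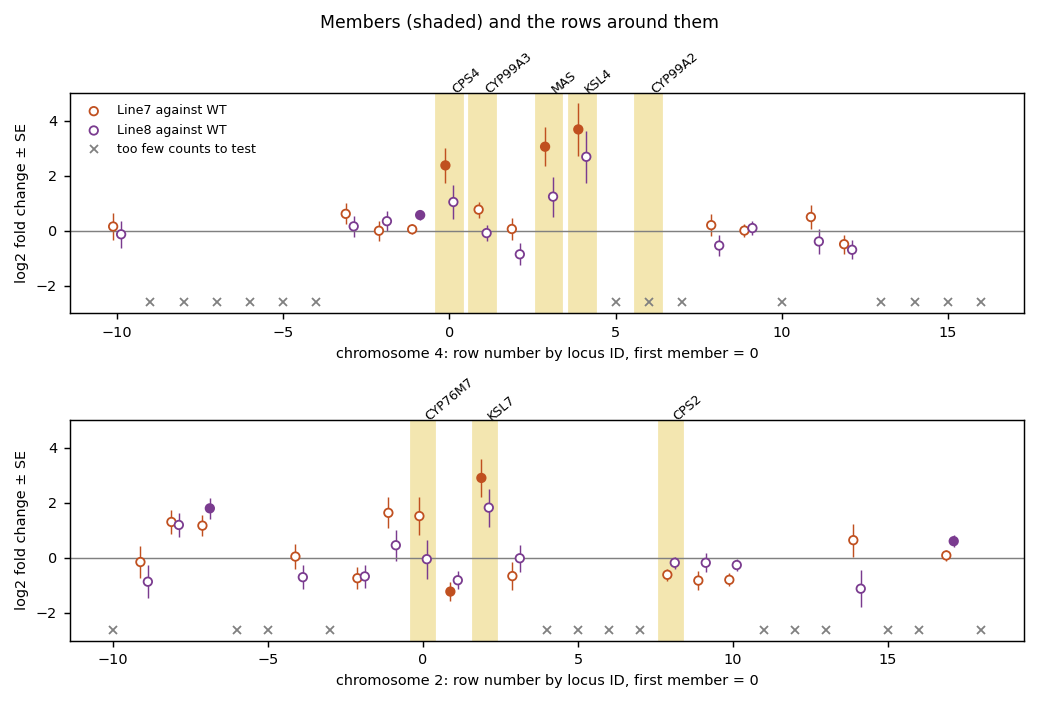
Fitted log2 fold change with SE (vertical axis, edgeR) of the chromosome 4 and chromosome 2 members (shaded) and of the rows inside and 10 rows to either side of them, against row number in locus order. Filled points passed the adjusted threshold and crosses are rows with too few counts to test; on chromosome 4 the filled Line7 points are CPS4, MAS and KSL4.

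The rows most like the chromosome 4 genes were sought by the root mean square difference, over the 12 libraries, between centred log2(CPM + 0.1) of a row and the mean of the 4 testable chromosome 4 members. CPS4 itself ranked 1 of 20217 rows (0.311), KSL7 ranked 6 (0.476), MAS 10 (0.514) and KSL8 185 (0.724). CPS4, MAS, KSL4 and CYP99A3 form part of that mean, whereas KSL7 and KSL8 do not. CYP99A3 ranked 754, KSL4 1595, CYP76M7 7056 and CPS2 16809. The nearest other rows were Os01g0976500 (0.429) and Os01g0727500 (0.459), whose names are not given here. These rows were picked by their values in the same libraries, so their tests against WT are descriptive and add no support. Os01g0727500 had log2 fold changes of 2.06 in Line7 and 1.45 in Line8 (edgeR adjusted p = 0.0241 and 0.0341). Its WT level was only 0.307 to 0.650 CPM. Os01g0976500 had 1.83 in Line7 and 1.37 in Line8 (edgeR adjusted p = 0.0696 and 0.0921), and 1.60 where both lines were averaged (adjusted p = 0.0417).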

How the data were processed

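Leaf RNA was extracted with Trizol, per the labels' protocols. The authors deposited whole-number counts per annotated gene, 1 column for each of the 12 libraries. Of the aligner, counter, build and strandedness, each is not given in the sources used. Every column matched 1 sample by its description, and groups come from the titles. The 10 members and the lists were chosen with earlier results of these data known. Named genes were all members, the target ID and the 2 rows most like the chromosome 4 members, plus 21 further pathway symbols. No table used here pairs those symbols with locus IDs, so these genes were not analysed here. RefSeq symbols are from assembly ASM3414082v1.

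Rows were kept by filterByExpr (20217), scaled by TMM and fitted with edgeR 4.0.16 in R 4.3.3 (robust glmQLFit and glmQLFTest, all 12 libraries, group as factor), after a test on simulated data. The threshold was a Benjamini-Hochberg adjusted p of 0.05 over all tested rows. Each SE is the absolute log2 fold change over the square root of F. CPM is after TMM. DESeq2 1.42.0 and limma-voom (limma 3.58.1), other size factors, filters, a replicate block and leaving out libraries were alternatives. Ratios used 0.5 added counts and exact permutation tests (scipy 1.17.1). Floors cover counting error only.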

Additional observations from a re-analysis of the deposited data

Results flagged for a closer look

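In 36 groups of 4 libraries (8 testable genes, the target ID and 3 ratios, in 3 groups), the library farthest from the rest was compared with the group's range, and 2 stood apart, where chance marks about 1 group in 20. CYP99A3 stood at 10.05 CPM in Line8 replicate 1, against 4.84 to 4.94 CPM in the other Line8 libraries. KSL4 stood at 0.835 CPM (14 counts) in WT replicate 1, against 0 to 0.124 CPM in the other WT libraries.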

How the results depend on the processing

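The number of phytoalexin genes called was within 1.5 times its value under all alternatives except these. In Line7 against WT limma-voom called 0 in place of 4, where it called 0.109% of all rows. Leaving out single libraries gave 0 to 7, where 0.0341% to 25.2% of all rows were called. Line7 and WT fitted alone stayed within that margin with 3, but these were CPS4, KSL7 and CYP76M7, without KSL4 and MAS. Over all rows, the 1409 calls of Line7 against WT became 3024 with DESeq2, 22 with limma-voom and 587 with Line7 and WT fitted alone, and the 5 calls of Line8 against Line7 became 474 with DESeq2. In Line8 against WT, where 0 were called, 1 (KSL4) was called with RLE size factors, with the stricter filter and when Line8 and WT were fitted alone. Of all rows 27.1%, 28.4% and 28.3% were then called in either direction. DESeq2 and the replicate block called 2 (KSL4 and KSL7), where 33.3% and 23.9% of all rows were called. Leaving out single libraries gave 0 to 2, where 16.8% to 31.7% of all rows were called. These counts are near the background or below it. For the mean of both lines limma-voom called 1 in place of 4, where it called 23.1% of all rows. Leaving out single libraries gave 0 to 4, where 11.2% to 35% of all rows were called. In Line8 against Line7 the number was 0 in every alternative run. The causes were not tested. In Line8 against WT, 3 uncalled genes changed sign: CYP76M7 was 0.0036 when Line8 and WT were fitted alone and -1.41 to 0.38 with single libraries left out, KSL8 was -0.067 with upper-quartile factors and -0.099 to 0.25, and CYP99A3 was -0.38 to 0.054.

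Same-numbered libraries did not deviate together (5 of 12 pairs above 0.1, range -0.41 to 0.36, own number best in 9 of 24 combinations), so the numbers were not taken as pairs. With the replicate block, calls numbered 3 in Line7 (CPS4 at 2.13, edgeR adjusted p = 0.0582), 2 in Line8 and 3 for the lines' mean (CPS4 at 1.43, adjusted p = 0.0528), and over all rows 475 in Line7 in place of 1409. Of all rows 2.35%, 23.9% and 21.1% were called in these comparisons. No ratio passed the adjusted threshold in any alternative, but leaving out 1 of 4 libraries puts the threshold out of reach for 3 against 4. Depth limits KSL4, MAS, CYP76M7, KSL10 and CYP99A2, with as few as 0 to 3 counts in a library.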
